A study of Homo sapiens with 414 samples.

Results

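The transcripts described here are the 9 genes of HLA class I antigen presentation and peptide loading B2M, HLA-B, HLA-C, HLA-E, HLA-F, TAP1, TAP2, TAPBP and NLRC5, out of 36135 genes in the count table. They were chosen by name, and each was taken from its single Ensembl row, whose identifier lies on the primary chromosomes. They were measured by single-cell RNA sequencing in LNCaP, an epithelial line derived from a human prostate carcinoma. The control arm received a non-targeting siRNA from Dharmacon and the knockdown arm an siRNA from IDT against SULT2B1, a sulfotransferase that adds sulfate to cholesterol. The siRNAs thus differed in supplier as well as in target, and these cannot be told apart. All cells were harvested 48 h after transfection without any other labelled treatment, and the series title names sensitivity to death mediated by TNF as its subject. Of the 401 cells used, 209 were control cells and 192 were knockdown cells. Batch 1 held 76 control and 66 knockdown cells, batch 2 held 66 and 65, and batch 3 held 67 and 61. The reads of all cells that shared an arm and a batch were added up, which gave 3 control and 3 knockdown libraries. No label says that the batches came from separate cultures. A p-value therefore speaks only of how far these batches differ, and that spread may be technical.

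HLA class I molecules carry peptides from inside the cell to its surface, where T cells and natural killer cells read them. A heavy chain, here HLA-B, HLA-C, HLA-E or HLA-F, pairs with the light chain beta-2-microglobulin, the product of B2M. Peptides cut by the proteasome enter the endoplasmic reticulum through the transporter formed by TAP1 and TAP2, and tapasin, the product of TAPBP, holds the empty heavy chain at that transporter while a peptide is selected. NLRC5 is a transactivator that acts at class I promoters together with the RFX, CREB and NF-Y factors. In many cell types interferons raise the transcription of this pathway through factors such as those of the IRF family. In prostate carcinoma, as in other tumours, reduced class I expression is a known feature.

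The promoters of these genes are shown so that members called higher by edgeR (B2M and TAPBP) can be set beside members that were not (TAP1, TAP2, HLA-B and HLA-C). This split follows the edgeR threshold and not the size of the change. TAP1 and HLA-B had larger log2 fold changes (1.29 and 0.96) than TAPBP (0.87) and passed DESeq2. RefSeq promoter sequences on GRCh38.p14, each 300 bases from 250 before to 50 after a transcription start, matched 7 of the 9 members by symbol. HLA-E and NLRC5 were not matched. The 250 bases before the first listed start are printed 5′ to 3′ on the strand of the gene. Capitals mark matches, on either strand, to 3 motifs: the core of the interferon-stimulated response element (GAAA, any 2 bases, GAAA), the gamma-activated site (TTC, any 3 bases, GAA) and a kB-like motif (GGGA, any base, T, any 2 bases, CC). They lie at chr15:44711267-44711516 on the plus strand for B2M, and on the minus strand at chr6:33314079-33314328 for TAPBP, chr6:32853705-32853954 for TAP1, chr6:32838740-32838989 for TAP2, chr6:31357180-31357429 for HLA-B and chr6:31272093-31272342 for HLA-C.
B2M: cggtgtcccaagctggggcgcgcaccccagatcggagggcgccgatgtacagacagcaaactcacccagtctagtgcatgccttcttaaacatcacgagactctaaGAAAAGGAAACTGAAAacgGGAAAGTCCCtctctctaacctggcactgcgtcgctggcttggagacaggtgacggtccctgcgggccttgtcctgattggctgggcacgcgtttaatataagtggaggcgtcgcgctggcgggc
TAPBP: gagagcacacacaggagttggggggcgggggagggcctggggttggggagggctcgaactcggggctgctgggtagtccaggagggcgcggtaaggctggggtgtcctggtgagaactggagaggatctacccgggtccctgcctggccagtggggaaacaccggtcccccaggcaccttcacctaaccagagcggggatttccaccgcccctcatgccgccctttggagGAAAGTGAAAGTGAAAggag
TAP1: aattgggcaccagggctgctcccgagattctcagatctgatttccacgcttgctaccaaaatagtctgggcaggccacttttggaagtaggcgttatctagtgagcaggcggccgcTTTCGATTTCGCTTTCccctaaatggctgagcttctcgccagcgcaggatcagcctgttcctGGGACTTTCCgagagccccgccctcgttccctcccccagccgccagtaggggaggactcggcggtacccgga
TAP2: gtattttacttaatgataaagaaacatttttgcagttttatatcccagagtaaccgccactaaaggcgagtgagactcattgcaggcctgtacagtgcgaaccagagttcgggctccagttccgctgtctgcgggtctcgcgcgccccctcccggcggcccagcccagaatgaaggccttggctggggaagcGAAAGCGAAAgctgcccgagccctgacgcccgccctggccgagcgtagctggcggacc
HLA-B: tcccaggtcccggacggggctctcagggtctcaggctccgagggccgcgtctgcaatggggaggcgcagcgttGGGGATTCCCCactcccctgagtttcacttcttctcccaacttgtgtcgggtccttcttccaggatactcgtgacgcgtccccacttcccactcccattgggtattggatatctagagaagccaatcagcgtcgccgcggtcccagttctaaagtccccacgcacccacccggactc
HLA-C: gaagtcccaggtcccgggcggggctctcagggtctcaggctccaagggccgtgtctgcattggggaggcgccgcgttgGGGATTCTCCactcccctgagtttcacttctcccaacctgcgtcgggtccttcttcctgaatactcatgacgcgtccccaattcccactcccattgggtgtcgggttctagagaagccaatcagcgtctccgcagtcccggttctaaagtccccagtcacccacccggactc

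The interferon-stimulated response element core was found in the 300 bases of 5 of the 7 matched members (B2M, HLA-F, TAP1, TAP2 and TAPBP), and in 3.65% of 27305 promoters, 1 for each RefSeq symbol. In B2M it matched at positions -144 and -138 from the start, in TAP1 at -134 and -128, and in TAPBP at -20 and -14. Each of these pairs overlaps, so that in all 3 promoters GAAA, or its complement TTTC in TAP1, stands 3 times in a row with 2 bases between. In TAP2 there was a match at -58 and in HLA-F at -156. The kB-like motif was found in 4 of 7 (B2M at -125, HLA-B at -177 and -176, HLA-C at -172, and TAP1 at -72 and 23), and in 5.00% of all promoters. The matches in HLA-B overlap each other, and the matches of the response element and of the kB-like motif in B2M and TAP1 do not. TGACG, the core of the cyclic AMP response element, was found in B2M, HLA-B, HLA-C and TAP2 and in 25.0% of all promoters. CCAAT was found in B2M, HLA-B, HLA-C, HLA-F and TAP1 and in 35.7% of all promoters. The gamma-activated site was found in 0 of the 7 at the first listed start, at position -189 of a second TAP1 start, and in 7.88% of all promoters. A match describes the letters of the window and does not show that a factor binds there. A window without a match may still hold an element of that kind with other letters, so a missing match does not show that it is absent.

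**Figure D1:**
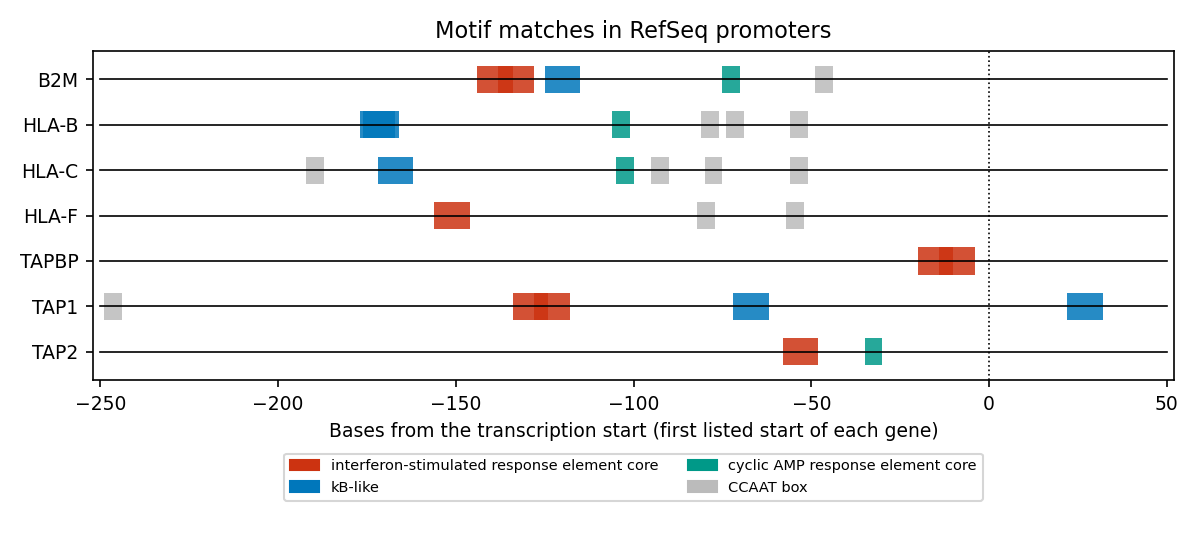
Motif matches in the RefSeq promoters of 7 members, drawn to scale as bases from the first listed transcription start of each gene (horizontal axis). Red blocks are the interferon-stimulated response element core, blue the kB-like motif, green the cyclic AMP response element core and grey the CCAAT box; the red blocks of TAPBP lie nearest the start, and HLA-B and HLA-C have blue but no red blocks.

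The library totals ranged from 71630108 to 84359044 reads in genes, and a cell had between 169244 and 2353816 reads with a median of 1150826. SULT2B1 was read 152, 109 and 332 times in controls 1, 2 and 3, against 13, 21 and 0 times in knockdowns 1, 2 and 3. Its log2 fold change was -4.13 (SE 1.43), which did not pass the edgeR quasi-likelihood test (adjusted p = 0.268) and passed DESeq2 (adjusted p = 0.0156). All 9 luminal prostate markers had reads, and their summed level was 4627 to 6023 CPM in control and 2736 to 4123 CPM in knockdown libraries, with KLK3 (adjusted p = 0.0416) and KLK2 (adjusted p = 0.0446) lower by edgeR. Markers of blood and endothelial cells summed to 0.956 to 11.5 CPM in control and 4.73 to 4.89 CPM in knockdown, with CD14 at 0. Basal markers stayed at or below 1.12 CPM and fibroblast markers at or below 4.34 CPM in each library. Cells with over 20% of their reads from mitochondrially encoded genes made up 27.6%, 12.1% and 8.96% of the control cells and 9.09%, 0% and 3.28% of the knockdown cells of batches 1, 2 and 3. The part of the luminal markers in the differences below was not tested, and values without the cells of high mitochondrial share are given where they change a call or an overlap between the arms.

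Across the pathway, B2M and TAPBP rose in knockdown cells, and HLA-B, HLA-E, TAP1 and NLRC5 were higher in every knockdown library than in any control library without passing the edgeR test. HLA-C was higher within each batch but overlapped between the arms, as did HLA-F and TAP2. By the edgeR quasi-likelihood test, with Benjamini-Hochberg adjustment over 20326 genes and a threshold of 0.05, 2 of the 9 members were higher and 0 lower, where 0.394% of all genes tested were called higher and 0.384% lower. All 9 members passed the filter on low counts. At an unadjusted p under 0.05 edgeR had 6 members higher and 0 lower, against 6.40% of all genes higher and 7.08% lower. With batch as a block, B2M alone was called, where 0.128% of all genes were called higher. DESeq2 on the same counts called 6 members higher (B2M, HLA-B, HLA-E, NLRC5, TAP1 and TAPBP) and 0 lower, where it called 3.63% of genes higher and 4.31% lower. The levels of 6 members, the same ones, were higher in all 3 knockdown libraries than in any control library, which held for 10.5% of all genes. The median log2 fold change of the members was 1.02, against 0.0063 over all genes tested. The 9 genes share libraries and a pathway and are not replicates of each other.

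**Figure D2:**
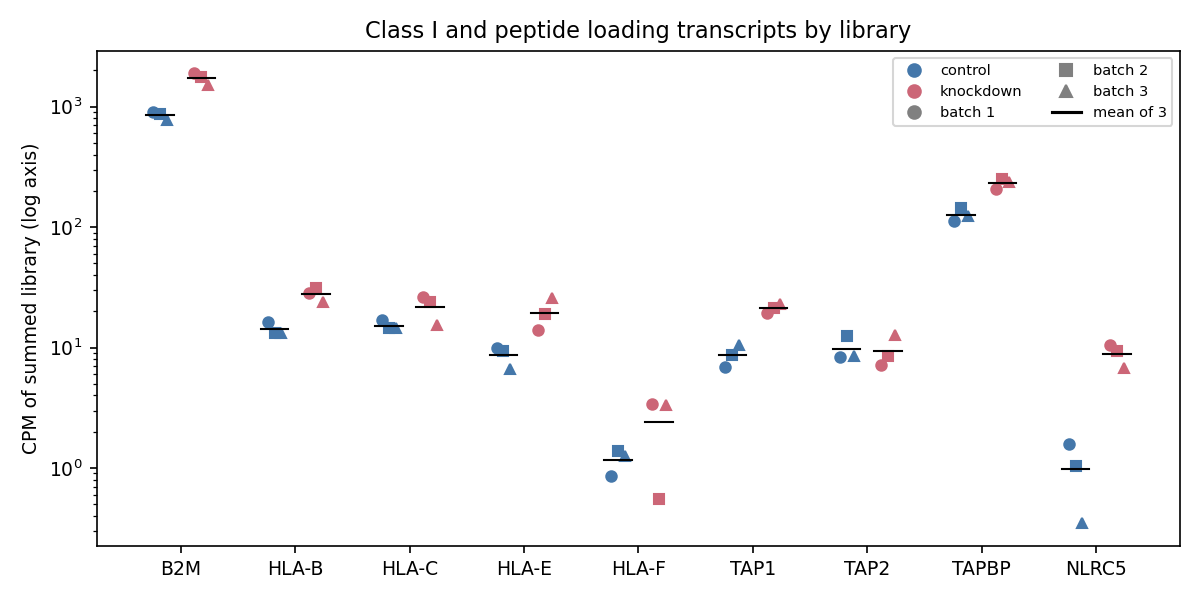
Level of each member in the 3 control (blue) and 3 knockdown (red) libraries, in CPM of the summed library (counts relative to library size) on a log axis, with marker shape for the batch and a black bar for the mean of 3. B2M, HLA-B, HLA-E, TAP1, TAPBP and NLRC5 have all red points above all blue points; HLA-C, HLA-F and TAP2 overlap.

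The light chain gene B2M (ENSG00000166710, chr15:44711487-44718877, plus strand of GRCh38) was the most abundant member. Control libraries held 65833, 63626 and 60289 of its reads, in the order of the batches, and knockdown libraries 151929, 130864 and 128586. In CPM, counts relative to the TMM-scaled size of the library, that is 896, 870.1 and 777 against 1897, 1767 and 1501. The lowest knockdown library thus lay well above the highest control library, and the mean went from 848 ± 62.7 to 1722 ± 202 CPM (SD, n = 3 libraries each). The edgeR log2 fold change was 1.02 (SE 0.115), a fold of 2.03, with adjusted p = 0.0126. With batch as a block the adjusted p was 0.0327, and the log2 ratios within batches 1, 2 and 3 were 1.08, 1.02 and 0.95. The call did not hold in edgeR fits without control 1 (adjusted p = 0.0651), control 2 (0.0604), control 3 (0.0636), knockdown 1 (0.0682) or knockdown 2 (0.0727), and held without knockdown 3 (0.0295), while the log2 fold change stayed between 0.94 and 1.11.

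Of the heavy chain genes, HLA-B and HLA-E were higher in each knockdown library than in any control library, and HLA-C and HLA-F were not. Of these 4 genes 0 passed the edgeR test, 2 were higher at an unadjusted p under 0.05 (6.40% of all genes) and 2 passed DESeq2 (3.63% of all genes higher), in each case HLA-B and HLA-E. HLA-B (ENSG00000234745, chr6:31269491-31357188, minus strand), a classical heavy chain, stood at 16.2, 13.3 and 13.3 CPM in control and 28.2, 31.5 and 23.7 CPM in knockdown libraries. Its log2 fold change was 0.96 (SE 0.228; edgeR adjusted p = 0.121; DESeq2 adjusted p = 0.00176), close to that of B2M but with a larger error. HLA-C (ENSG00000204525, chr6:31268749-31272130, minus strand), the other classical heavy chain here, stood at 16.8, 14.4 and 14.5 CPM against 26.4, 24.0 and 15.4 CPM. Its knockdown library of batch 3 fell inside the control range, and the log2 fold change was 0.53 (SE 0.273; edgeR adjusted p = 0.481). HLA-E (ENSG00000204592, chr6:30489467-30494205, plus strand), which presents leader peptides of other class I chains to natural killer receptors, stood at 9.84, 9.31 and 6.65 CPM against 13.9, 18.9 and 25.8 CPM. The groups did not overlap, but the batches differed widely, with log2 ratios of 0.50, 1.02 and 1.96 and an overall log2 fold change of 1.18 (SE 0.328; edgeR adjusted p = 0.168; DESeq2 adjusted p = 0.0120).

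HLA-F (ENSG00000204642, chr6:29722775-29738528, plus strand), a nonclassical heavy chain, was the least abundant heavy chain, at 0.857, 1.38 and 1.26 CPM in control and 3.38, 0.554 and 3.36 CPM in knockdown libraries. The knockdown library of batch 2 was the lowest of the 6, and the log2 fold change of 1.06 had a wide error (SE 0.804; edgeR adjusted p = 0.666). In 3 libraries a single cell held most of the HLA-F reads, 89.1% in control 2, 89.8% in control 3 and 55.2% in knockdown 3. Without the HLA-F reads of the cell with the most in each library, the log2 fold change was 2.19 (edgeR adjusted p = 0.476). The heavy chain genes are similar in sequence, and reads can be lost or swapped between them in counting. In GENCODE 29, HLA-B and HLA-C share 35 exon bases on the same strand, which is 1.15% of the exon bases of HLA-B and 1.40% of those of HLA-C. Counting overlaps on either strand, 18.9% of the exon bases of HLA-B and 28.5% of those of HLA-F belong to another gene as well, and 0 of those of HLA-E, B2M, TAPBP and NLRC5. Whether the counting used strand is not given in the sources used here.

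The peptide transporter is made of the products of TAP1 and TAP2. TAP1 (ENSG00000168394, chr6:32845209-32853978, minus strand) gave 507, 631 and 816 reads in control and 1556, 1570 and 1990 in knockdown libraries, which is 6.90, 8.63 and 10.5 CPM against 19.4, 21.2 and 23.2 CPM. The lowest knockdown library was thus above the highest control library by 19.4 against 10.5 CPM. The log2 fold change was 1.29 (SE 0.270) with log2 ratios of 1.49, 1.30 and 1.14 in the batches, but the edgeR adjusted p was 0.0930, and DESeq2 gave 0.000139. TAP2 (ENSG00000204267, chr6:32821833-32838780, minus strand), which encodes the other subunit of the transporter, stood at 8.36, 12.5 and 8.51 CPM in control and 7.11, 8.48 and 12.6 CPM in knockdown libraries. The ranges coincided almost fully, and the log2 fold change was -0.06 (SE 0.347; edgeR adjusted p = 0.972), with log2 ratios of -0.23, -0.56 and 0.56. The difference between the changes of TAP1 and TAP2 was not tested.

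TAPBP (ENSG00000231925, chr6:33299694-33314387, minus strand), the tapasin gene, had 8314, 10487 and 9664 reads in control and 16761, 18432 and 20398 in knockdown libraries. That is 113, 143 and 124 CPM against 209, 249 and 238 CPM, without overlap, and means of 127 ± 15.3 and 232 ± 20.5 CPM (SD, n = 3 libraries each). Its log2 fold change of 0.87 (SE 0.134), a fold of 1.83, passed the edgeR test with adjusted p = 0.0410, and the batch ratios were 0.89, 0.80 and 0.94 on the log2 scale. The call was lost with batch as a block (adjusted p = 0.0854) and without the cells over 20% mitochondrial reads (0.0586). It was also lost without control 1 (0.149), control 2 (0.0668), control 3 (0.150), knockdown 1 (0.104), knockdown 2 (0.164) or knockdown 3 (0.152), while the log2 fold change stayed between 0.78 and 0.96.

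TAP1 and TAP2 counts have their own overlaps in the annotation. The span of TAP1 lies within that of PSMB9 (chr6:32844136-32859585, plus strand), a proteasome subunit gene read in the opposite direction, over all 8770 bases of TAP1, without shared exon bases. Of the exon bases of TAP1, 9.49% are shared with the antisense transcript PSMB8-AS1, and of those of TAP2, 32.3% with AL669918.1 on the same strand.

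NLRC5 (ENSG00000140853, chr16:56989485-57083531, plus strand), the transactivator of class I genes, had the largest fold of the 9. NLRC5 reads numbered 115, 76 and 27 in control and 847, 700 and 575 in knockdown libraries, or 1.57, 1.04 and 0.348 CPM against 10.6, 9.45 and 6.71 CPM. All knockdown libraries were above all control libraries by a wide margin, with means of 0.984 ± 0.610 and 8.91 ± 1.99 CPM (SD, n = 3 libraries each). The log2 fold change was 3.18 (SE 0.621), a fold of 9.05, with log2 ratios of 2.76, 3.19 and 4.27 in the batches. The edgeR adjusted p was 0.0802 and did not pass, and DESeq2 gave 1.38e-05. The control reads came almost wholly from single cells, since the cell with the most NLRC5 reads held 93.0%, 93.4% and 100.0% of them, against 34.9%, 13.4% and 34.3% in knockdown libraries. Without the NLRC5 reads of that cell in each library, 8, 5 and 0 reads remained in control and 551, 606 and 378 in knockdown. The log2 fold change was then 6.75 (edgeR adjusted p = 0.0517). Only 4, 3 and 1 control cells had a read, so this step was bound to leave few control reads. The larger fold is thus no further support.

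**Figure D3:**
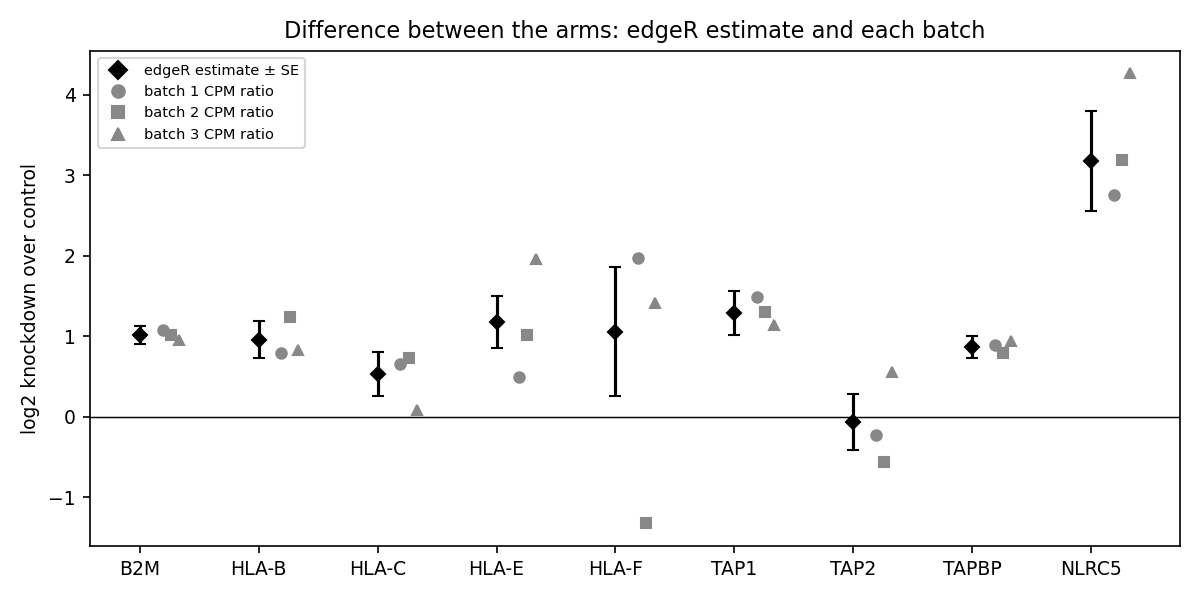
Log2 difference between the arms for each member: black diamonds are the edgeR estimate with its SE, and grey symbols the ratio of CPM within each batch. The 3 batches of B2M (0.95 to 1.08) and TAPBP (0.80 to 0.94) lie close together, those of HLA-F (-1.32 to 1.98) lie on both sides of 0, and NLRC5 has the largest estimate at 3.18.

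The same genes were then followed cell by cell. B2M had a read in each of the 401 cells, so detection could not differ. TAPBP had a read in 67 of 76, 59 of 66 and 60 of 67 control cells, and in 63 of 66, 65 of 65 and 60 of 61 knockdown cells. For NLRC5 the counts were 4 of 76, 3 of 66 and 1 of 67 control cells against 17 of 66, 23 of 65 and 21 of 61 knockdown cells. As percentages with exact 95% bounds (Clopper-Pearson), these are 5.26% (1.45 to 12.9), 4.55% (0.947 to 12.7) and 1.49% (0.0378 to 8.04) in control, and 25.8% (15.8 to 38.0), 35.4% (23.9 to 48.2) and 34.4% (22.7 to 47.7) in knockdown. No interval of a knockdown library reached down to one of a control library, and the intervals cover counting error only.

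TAP1 had a read in 31.6%, 34.8% and 40.3% of control cells and in 62.1%, 69.2% and 60.7% of knockdown cells. For HLA-E the shares were 25.0%, 31.8% and 38.8% against 60.6%, 69.2% and 57.4%. In both, the lowest knockdown share was above the highest control share by more than the spread within an arm. HLA-B had a read in 72.4%, 53.0% and 71.6% of control cells and 92.4%, 92.3% and 80.3% of knockdown cells. HLA-C went from a mean of 73.3% ± 7.64 to 90.4% ± 7.37 and HLA-F from 8.91% ± 4.34 to 19.3% ± 5.21 (SD, n = 3 libraries each). TAP2 had a read in a mean of 28.0% ± 7.41 of the cells in control and 31.3% ± 5.79 in knockdown libraries (two-sided exact permutation p = 0.700), with overlapping libraries.

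In all, 7 of 9 members were detected in a larger share of cells in every knockdown library than in any control library, which held for 15.3% of all genes. Each of the 7 had a two-sided exact permutation p of 0.1, the smallest that 3 libraries against 3 can give, and 0.129 after Benjamini-Hochberg adjustment over the 9 members, so none could pass 0.05. Within batches the smallest p that the design allows is 0.25. A share of cells with a read depends on depth, so each cell was also thinned to 100000 reads, which left out 0 cells. The thinned shares of HLA-E (19.3% to 40.3%), TAP1 (21.2% to 37.6%), TAPBP (80.7% to 92.1%) and NLRC5 (2.32% to 16.5%) still did not overlap between the arms. Those of HLA-B (39.9% to 55.5%), HLA-C (46.3% to 60.6%) and HLA-F (4.20% to 11.4%) did, and TAP2 gave 15.9% and 13.6%. The same 4 genes, and not the other 3, were without overlap when cells over 20% mitochondrial reads were left out. The share of all genes without overlap was not computed after thinning or without those cells, so these counts have no such reference.

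**Figure D4:**
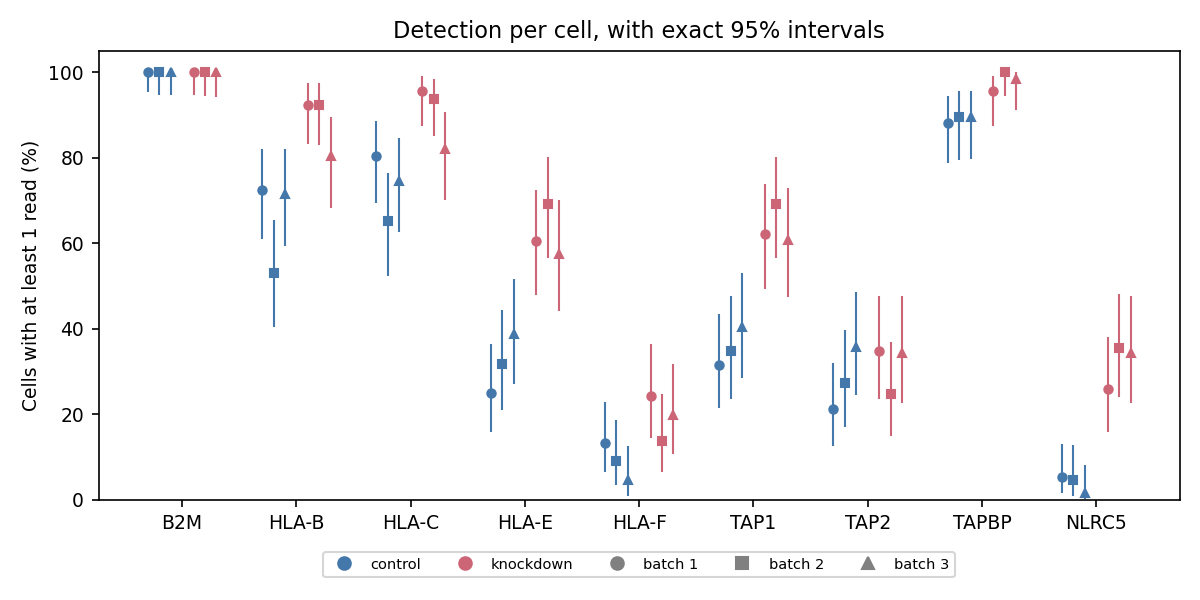
Share of cells with at least 1 read of each member (vertical axis, percent), by library, with exact 95% intervals for counting error; blue is control, red is knockdown, and the marker shape gives the batch. B2M is at 100.0% in all libraries, NLRC5 goes from at most 5.26% in control to at least 25.8% in knockdown, and TAP2 overlaps.

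The level per cell, taken as the mean of log2(CPM + 1) over the cells of a library, weights each cell equally. It was 8.91, 9.56 and 9.40 in control and 10.3, 10.5 and 10.2 in knockdown libraries for B2M. For TAPBP the values were 5.04, 5.93 and 5.53 against 6.85, 7.25 and 7.04. For NLRC5 they were 0.144, 0.129 and 0.0682 against 0.957, 1.43 and 0.918. These 3 members had no overlap between the arms, and neither had HLA-B, HLA-C, HLA-E or TAP1, so that 7 of 9 were higher in every knockdown library, as were 15.9% of all genes. Without cells over 20% mitochondrial reads HLA-C overlapped as well (3.35, 2.33 and 2.51 in control, 4.11, 3.86 and 3.02 in knockdown; two-sided exact permutation p = 0.2), which left 6 members. Each of these 6 then had a two-sided exact permutation p of 0.1, adjusted 0.150. The share of all genes without overlap was not computed for that choice of cells. With all cells, each of the 7 had a two-sided exact permutation p of 0.1, adjusted 0.129. HLA-F (0.222 to 0.554, p = 0.200 by the exact permutation test) and TAP2 (1.01 to 0.984, p = 0.900) overlapped.

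Within libraries the spread between cells was wide. In control 1, the middle 50% of cells had 517 to 999 CPM of B2M with a median of 811, and in knockdown 1 they had 972 to 2173 CPM with a median of 1374. The highest knockdown cells reached 9549, 13762 and 11648 CPM of B2M, while the highest control cells reached 3200, 2536 and 1957 CPM. Among cells with a read, the median level of HLA-B was 7.14, 8.56 and 12.2 CPM in control and 17.3, 17.3 and 13.3 CPM in knockdown libraries, and that of HLA-E 7.55, 8.65 and 7.99 against 9.65, 11.1 and 26.4 CPM. In both genes, then, cells with a read also had more of it in each knockdown library. For TAP1 the medians of cells with a read overlapped, at 7.52, 9.73 and 9.29 CPM in control and 7.73, 14.9 and 15.0 CPM in knockdown.

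**Figure D5:**
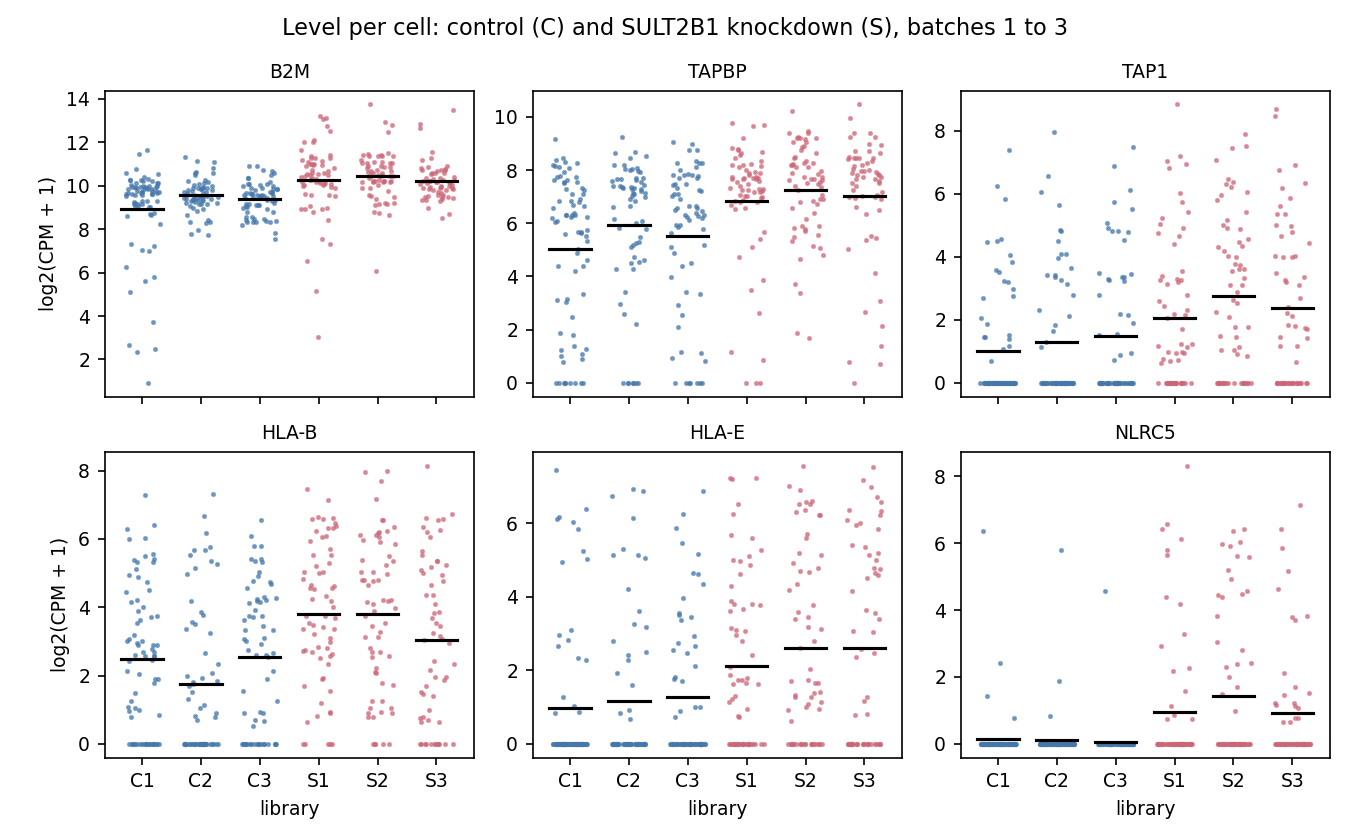
Level per cell as log2(CPM + 1) for 6 members in the control libraries (C1 to C3, blue) and knockdown libraries (S1 to S3, red), 1 point per cell, with a black bar for the library mean. Library means of B2M lie at 8.91 to 9.56 in control and 10.2 to 10.5 in knockdown, while HLA-E, TAP1 and NLRC5 keep many knockdown cells at 0.

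Cells of the knockdown libraries had reads of more of the 9 transcripts. The mean number of members with a read was 4.37, 4.15 and 4.57 per control cell and 5.91, 5.98 and 5.67 per knockdown cell. Cells with at least 6 members numbered 16, 13 and 15 in control (21.1%, 19.7% and 22.4%) and 43, 45 and 36 in knockdown libraries (65.2%, 69.2% and 59.0%). After thinning to 100000 reads the means were at most 3.40 in control and at least 4.08 in knockdown libraries, still without overlap. These scores over the members are descriptions and carry no test. The mean number follows from the shares of cells given above and does not measure whether members occur together. No such score was computed for other genes.

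Levels can be compared between genes only per length, here as CPM per kilobase of exon in GENCODE 29. In control libraries the means ran from B2M at 139 ± 10.3 through TAPBP at 25.1 ± 3.02, HLA-C at 6.07 ± 0.528, HLA-B at 4.69 ± 0.549, HLA-E at 2.89 ± 0.575, TAP1 at 1.81 ± 0.376, TAP2 at 1.53 ± 0.367 and HLA-F at 0.269 ± 0.0633 to NLRC5 at 0.0794 ± 0.0493 (SD, n = 3 libraries each). Among neighbours in that order the ranges over libraries overlapped for TAP1 and TAP2 only. In knockdown libraries TAP1, at 4.43 ± 0.396, stood apart from TAP2, at 1.47 ± 0.446, and the mean of NLRC5, at 0.720 ± 0.160, was above that of HLA-F, at 0.560 ± 0.375. HLA-B at 9.12 ± 1.29 and HLA-C at 8.74 ± 2.30 overlapped there, as did HLA-C with HLA-E at 6.57 ± 2.00, HLA-E with TAP1, and HLA-F with NLRC5. B2M remained the highest, at 283 ± 33.2, and TAPBP the next, at 45.9 ± 4.05. With the length of the longest principal transcript, a choice made after seeing the data, TAP2 at 3.92 came above HLA-E at 3.31 and TAP1 at 2.93 CPM per kilobase in control, and the other control means kept their order. In knockdown libraries that length put HLA-F, at 1.49, above NLRC5, at 1.31.

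Correlations between members across cells were low to moderate. Spearman's rho between pairs of members with a read in at least 20% of the cells of a library had medians of 0.25, 0.13 and 0.13 over 21 pairs each in control, and of 0.17, 0.19 and 0.25 over 36, 28 and 28 pairs in knockdown libraries 1, 2 and 3. B2M with HLA-B gave 0.072, -0.079 and 0.16 across the control cells and 0.51, 0.33 and 0.39 across the knockdown cells. B2M with TAP1 gave 0.25, -0.11 and 0.068 against 0.28, 0.46 and 0.40. Of the 21 pairs compared in all 6 libraries, 5 had higher values in every knockdown library than in any control library (B2M with HLA-B, B2M with TAP1, HLA-B with HLA-E, HLA-B with TAPBP, and HLA-C with TAP1), and 0 had lower ones, over 61 to 76 cells each. Other pairs overlapped, such as B2M with TAPBP at 0.43, 0.25 and 0.12 in control and 0.22, 0.32 and 0.23 in knockdown. Cells of a library share batch and depth range, pairs share genes, and the values are descriptions. The share of all gene pairs that lie apart in this way was not computed. The 5 pairs are therefore not shown to be particular to the members.

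The mean log2(CPM + 1) of the 9 members in a cell was set against all 10389 other genes with a read in at least 20% of cells of each library. In the 3 knockdown libraries the highest mean rho was that of BIRC3 (0.62, 0.53 and 0.40, mean 0.52), followed by PSME2 (0.48, 0.52 and 0.53, mean 0.51), PSME2P2 (mean 0.51), PSME2P1 (mean 0.48), PSME1 (mean 0.45) and ISG20 (mean 0.45). In control libraries the means of these 6 genes were 0.16, 0.23, 0.21, 0.17, 0.32 and 0.17. Over all those genes the 5th and 95th percentiles of the mean rho were -0.13 and 0.21 in knockdown and -0.019 and 0.25 in control. PSME2P1 and PSME2P2 are pseudogenes that resemble PSME2, and reads may be shared among the 3. Among interferon-response genes, IFIT1 gave 0.30, 0.32 and 0.22, IFIT2 0.39, 0.50 and 0.31, and IFIT3 0.34, 0.55 and 0.23 in knockdown cells. In the same cells ISG15 gave 0.39, 0.33 and 0.42, and IRF1 0.40, 0.37 and 0.31. ISG15 was 0.36, 0.16 and 0.063 in control cells, where IFIT1, IFIT2, IFIT3 and IRF1 were read in too few cells to be compared. The members' mean itself gave rho of 0.60 with genes per cell and -0.59 with the mitochondrial percentage in control 1, and between 0.069 and 0.31 with genes per cell in knockdown libraries. The part of cell quality in these values was not tested.

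Genes that work beside the members were taken from lists of partners. In the immunoproteasome and its activator, which cut peptides suited to class I, edgeR called 2 of 5 genes higher and 0 lower. Of all genes it called 0.394% higher and 0.384% lower. At an unadjusted p under 0.05, 4 of the 5 were higher and 0 lower, against 6.40% and 7.08% of all genes. DESeq2 called 3 higher and 0 lower, against 3.63% and 4.31% of all genes. The median log2 fold change of these 5 genes was 0.78, against 0.0063 over all genes tested. PSMB9, a catalytic subunit, had 0.585, 0.752 and 1.35 CPM in control and 13.0, 16.8 and 10.9 CPM in knockdown libraries, a log2 fold change of 3.91 (SE 0.470; edgeR adjusted p = 0.0155). PSME1, a subunit of the proteasome activator, went from 318 ± 35.2 to 542 ± 36.0 CPM (SD, n = 3 libraries each), a log2 fold change of 0.77 (SE 0.116; edgeR adjusted p = 0.0378). PSME2, the other activator subunit, had a log2 fold change of 0.78 (adjusted p = 0.0535), and PSMB10, another catalytic subunit, one of 1.25 (adjusted p = 0.305). PSMB8, the remaining catalytic subunit, had 417, 6 and 0 reads in control and 102, 168 and 160 in knockdown libraries, so that 1 control library set its mean (adjusted p = 0.993). Of the 9 class I assembly and trimming genes edgeR called 0 in either direction. At an unadjusted p under 0.05, 3 were higher and 1 lower, against 6.40% and 7.08% of all genes. DESeq2 called 2 higher (ERAP1 and ERAP2), against 3.63% of all genes. The median log2 fold change of these 9 genes was 0.04. The peptide-trimming aminopeptidases ERAP1 (11.9 ± 3.36 to 29.1 ± 2.41 CPM, adjusted p = 0.0961) and ERAP2 (4.39 ± 0.974 to 18.4 ± 8.44 CPM, adjusted p = 0.0810) did not overlap between arms. TAPBPL, a tapasin relative, had a log2 fold change of 1.68 (adjusted p = 0.367), and UGGT1, a glycoprotein folding sensor, one of -0.48 (adjusted p = 0.339).

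Of 14 transcription factors of class I promoters, 1 was higher and 0 lower by edgeR, against 0.394% and 0.384% of all genes. Their median log2 fold change was 0.23. At an unadjusted p under 0.05, 6 were higher and 3 lower, against 6.40% and 7.08% of all genes. DESeq2 called 5 higher and 1 lower, against 3.63% and 4.31% of all genes. The lower one was NFYA, a subunit of NF-Y, at 43.4, 45.1 and 45.9 CPM in control and 22.1, 24.4 and 24.9 CPM in knockdown libraries, without overlap (log2 fold change -0.91, SE 0.174; edgeR adjusted p = 0.0738). IRF9, a factor of the interferon-stimulated response element, went from 0.122, 0.219 and 0.129 CPM to 7.14, 8.35 and 2.70 CPM (log2 fold change 5.26, SE 0.704; edgeR adjusted p = 0.0228). IRF1, an interferon-induced factor, stood at 0.754 ± 0.903 CPM in control and 21.1 ± 3.56 CPM in knockdown (adjusted p = 0.108), and RFXAP, a subunit of the RFX complex, at 6.07 ± 3.09 and 2.04 ± 1.32 CPM (adjusted p = 0.333; SD, n = 3 libraries each). RELA, an NF-kB subunit, had 9.02, 12.4 and 9.08 CPM in control and 22.2, 24.8 and 20.5 CPM in knockdown libraries, without overlap (adjusted p = 0.106). With batch as a block none of the 3 partner calls passed in edgeR (PSMB9 0.102, PSME1 0.117 and IRF9 0.0988). Leaving out any 1 library lost each of them as well, with adjusted p from 0.0585 to 0.151, except PSMB9 without control 3 (0.0360) and IRF9 without knockdown 3 (0.0373).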

How the data were processed

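The deposited table gives, for every cell, the number of reads counted in each gene as whole, unnormalized counts without molecular identifiers. Cells were captured singly on a Fluidigm C1 plate and sequenced on an Illumina HiSeq2500, per the labels' protocols, and sites without a cell, with more than 1 cell or with a dead cell were excluded under the microscope; no doublet caller was run. The submitters' processing notes name FastQC 0.11.3, TopHat2 2.1.0, HTSeq 0.6.1, edgeR 3.2.2 and GRCh38.p3; no source used here gives the annotation release, the strand setting or the treatment of reads that map to several places. Reads made by amplification do not each stand for a molecule.

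Of 414 samples, 401 single cells were used, and 4 columns of values were not used. Cells are named by plate position, so that no sequence barcodes could be compared between libraries. Counts were summed per arm and batch and tested with edgeR 4.0.16 (quasi-likelihood, robust, limma 3.58.1, R 4.3.3), TMM scaling, filterByExpr (minimum count 10) and p-values adjusted by Benjamini-Hochberg over 20326 genes, without covariates. CPM of libraries are scaled by TMM, except the sums of cell type markers, which are per library total. CPM of cells are per cell total. The labels mark the number that the arms share as the batch, so it pairs the libraries; the deviations of same-numbered libraries had correlations of 0.0780, 0.000547 and 0.000233. Values per cell were compared over the 6 libraries by two-sided exact permutation tests. Alternatives were DESeq2 1.42.0, RLE scaling, no filter, batch as a block, each library left out, equal weight per cell, and other choices of cells. Exon lengths and coordinates are from GENCODE 29. Per-cell values and plots used Python 3.11.15 (pandas 2.3.3, numpy 2.4.6, scipy 1.17.1; plots by matplotlib 3.10.9), and the fit was tested on simulated data.

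The members, lists and tests were chosen with earlier results of these data known. The text names SULT2B1, the members, from each list the called genes and then those with the largest log2 fold changes up to 4, and the 6 genes most like the members' mean across knockdown cells, with the interferon-response genes set against that mean; KLK3, KLK2, PSMB8, NFYA, HFE and CD74 fall outside this rule and were chosen after their values were seen. Some genes of the HLA family and of the lists are not reported here.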

Additional observations from a re-analysis of the deposited data

How the results depend on the processing

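The 2 member calls became 1 with the replicate block, the pairing by batch (B2M), 6 with DESeq2 and 1 without cells over 20% mitochondrial reads, and ranged from 0 to 1 when 1 library was left out. RLE scaling, the equal-weight limma fit and no filter on low counts gave 2 or 3. So did leaving out the 2 cells sequenced again or each member's reads in its top cell. At an unadjusted edgeR p under 0.05, 6 or 7 members passed in each fit with 1 library left out, as did 11.1% to 12.2% of all genes. The 3 partner calls became 0 with the replicate block, 13 with DESeq2, 6 without the filter and 5 with equal weight per cell. They ranged from 0 to 1 when 1 library was left out. Of all genes, the block fit called 0.128% higher, and DESeq2 called 3.63% higher and 4.31% lower. For the other alternatives the share of all genes called at the adjusted threshold was not computed. Unadjusted, 23 partner genes and 10.4% of all genes passed without the filter, and 24 and 15.4% with equal weight per cell. Unadjusted, 16 partner genes passed with the block and 15 to 19 with a library left out, against 22 in the main fit. Of all genes 12.5% passed unadjusted with the block, 11.1% to 12.2% with a library left out and 13.5% in the main fit. The 7 members whose shares of cells did not overlap became 4 after thinning to 100000 reads and 4 without cells over 20% mitochondrial reads. When at least 5 reads were required, the shares of HLA-B and HLA-F overlapped as well. The 7 whose levels per cell did not overlap became 6 without the cells over 20% mitochondrial reads. With the median over cells in place of the mean, the level of NLRC5 was 0 in every library, so it no longer differed. With a pseudocount of 10 CPM, HLA-F did not overlap either. The share of all genes without overlap was not computed for these settings. The log2 fold change of TAP2 changed sign, to 0.04, without cells over 20% mitochondrial reads. When 1 library was left out it ranged from -0.33 to 0.15, with 0.15 without control 2, 0.10 without knockdown 1 and 0.01 without knockdown 2. That of FCGRT ranged from -2.52 to 0.01 and that of CD47 from -0.47 to 0.12 in such fits. The other 8 members kept their direction in all 14 alternatives. B2M lay between 0.93 and 1.16, TAPBP between 0.78 and 1.01, and HLA-F between 0.73 and 2.19. NLRC5 lay between 2.50 (equal weight per cell) and 6.75 (without its reads in the top cells). The cause of these changes was not tested. Summing all rows with a member's symbol gave no further value, since each has 1 row.

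With 3 libraries an arm, the exact tests cannot pass 0.05, and a p above the threshold does not show that levels were equal. HLA-F and, in control, NLRC5 rest on few cells. How reads shared by heavy chain genes were assigned is not known here. The arms differ in the supplier of the siRNA as well as in its target.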

Other observations

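Relatives of the class I genes showed a mixed picture. Of 9 class I-like genes 6 were tested, with a median log2 fold change of 0.76, and edgeR and DESeq2 each called 0 of them. At an unadjusted edgeR p under 0.05, 1 was higher (HFE) and 1 lower (AZGP1), against 6.40% and 7.08% of all genes. PROCR, the endothelial protein C receptor, had a log2 fold change of 1.97 (edgeR adjusted p = 0.522), MR1, which presents vitamin metabolites, one of 1.01 (0.599), FCGRT, the neonatal Fc receptor heavy chain, one of -1.09 (0.821), and AZGP1, a secreted zinc-binding glycoprotein, one of -1.40 (0.326).

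Of 12 class II genes 6 passed the filter on low counts, with a median log2 fold change of 0.79, and edgeR called 0 of them. At an unadjusted p under 0.05, 3 were higher, against 6.40% of all genes. DESeq2 called 2 higher (HLA-DMB and HLA-DOB), against 3.63% of all genes. HLA-DMB, a subunit of the class II peptide editor, had 6.63, 7.71 and 6.89 CPM in control and 22.8, 14.7 and 21.4 CPM in knockdown libraries, without overlap (log2 fold change 1.47; edgeR adjusted p = 0.0772). HLA-DOB, a subunit of the modulator of that editor, had 0, 13 and 35 reads against 712, 44 and 155 (adjusted p = 0.326). HLA-DPA1 (log2 fold change -1.53, adjusted p = 0.807) and HLA-DQB1 (0.86, adjusted p = 0.556), which encode class II chains, overlapped between the arms, and CD74, the invariant chain, did not pass the filter. Of 7 ligands of inhibitory lymphocyte receptors and related surface genes 2 were tested and 0 called by edgeR or DESeq2, also 0 at an unadjusted edgeR p under 0.05. CD274, the ligand PD-L1, stood at 3.05, 2.31 and 6.07 CPM in control and 9.62, 16.5 and 1.54 CPM in knockdown libraries (adjusted p = 0.584), and CD47, a signal against phagocytosis, had a log2 fold change of -0.23 (adjusted p = 0.838).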
